A study of Mus musculus with 2 samples.

Results

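Peroxisomes shorten very long, branched and dicarboxylic fatty acyl chains by a beta-oxidation cycle of their own, and the genes described here encode the enzymes of that cycle after its first oxidation. They are Ehhadh, Hsd17b4, Acaa1a, Acaa1b, Scp2, Eci2, Ech1, Decr2 and Pecr, which are 9 of the 18193 genes named on the array, chosen by function from a list of gene symbols. These genes and the other gene lists below were chosen with earlier results of these data known. All 15 probe sets that the platform annotation gives to 1 of the 9 genes alone were taken, and 2 further probe sets annotated to both Acaa1a and Acaa1b were kept apart. The samples were livers of male 129SvEJ mice, 8 weeks old, either Ppara-null (pparalpha-/-) or wild type. Mice of both genotypes ate chow with 0.2% fenofibrate for 7 days, so all samples carried the drug. For each genotype 1 array was hybridised with RNA pooled from 3 mice, which leaves 2 arrays in all. Arrays of mice without fenofibrate were not analysed here, and the labels do not describe the deleted part of the gene. A difference below therefore joins what the genotypes differ in without the drug and what they differ in as a response to it.

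As background, PPARα is a nuclear receptor that hepatocytes use to switch on fatty acid oxidation, and fenofibrate is an agonist of it. In rodents such drugs enlarge the peroxisome population of the liver. In the peroxisome an acyl-CoA oxidase makes the trans-2-enoyl-CoA, a bifunctional enzyme hydrates and dehydrogenates it, and a thiolase splits off the shortened chain. Double bonds in unsaturated chains are first moved or reduced by auxiliary isomerases and a reductase.

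Of the 9 genes, 7 had a lower signal in Ppara-null liver by 2-fold or more and 0 had a higher one by 2-fold or more. The lower genes were both bifunctional enzymes, both copies of the 3-ketoacyl-CoA thiolase and all 3 auxiliary enzymes. Scp2, a thiolase and lipid carrier, and Pecr, a reductase that works in the opposite sense, had log2 ratios of Ppara-null over wild type of 0.07 and 0.15. The same 2-fold limit was passed downwards in Ppara-null by 4.99% of all 13041 measured genes and upwards by 2.8%. At a limit of 3-fold, 6 of the 9 genes and 1.01% of all measured genes were lower in Ppara-null. The median log2 ratio was -1.78 over the 9 genes and -0.005 over all measured genes. With 1 array per genotype no difference has a replicate check, no test can be made, and each value is given by its size alone. In whole liver, fewer cells of a type and less RNA per cell cannot be told apart.

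Signals are linear intensities that the authors scaled to a common target on each array. A gene counted as measured when its brightest probe set reached the median signal of its array, 269.4 in Ppara-null and 287.8 in wild type, on at least 1 array. All 15 probe sets of the 9 genes were above that floor on both arrays. Their dimmest signals were 892.3 in Ppara-null and 849.2 in wild type, at least 2.11 times the brightest control probe set for Bacillus transcripts, which liver RNA lacks. Where a gene had several probe sets that passed the floor on each array, their log2 ratios scattered around the mean of the gene with an SD of 0.42 (3917 genes with 10117 such probe sets). This scatter SD holds no difference between mice or between pools.

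The 2 arrays differed in some whole-array measures. All 18 hybridization control probe sets were brighter on the Ppara-null array, by a median log2 ratio of 0.38. The ratio of the 3' to the 5' probe set was 2.27 in Ppara-null and 1.89 in wild type for beta-actin, and 0.741 in Ppara-null and 0.679 in wild type for Gapdh. The 7 hepatocyte markers with a probe set were above the floor on both arrays. Their log2 ratios lay between 0.14 and 0.45 on the deposited scaling, and between -0.24 and 0.07 after scaling to the hybridization controls. The summed signal of 6 Kupffer cell markers was 13331 in Ppara-null and 7940 in wild type, with 5 of 6 above the floor on each array and Marco under it on both. Sums in Ppara-null and wild type were 13267 and 11600 for 6 sinusoidal endothelial markers and 28473 and 22282 for 6 stellate cell markers. Against these sums, the endothelial markers Pecam1 (228.0 in Ppara-null, under the floor, and 636.9 in wild type) and Lyve1 (log2 ratio -0.28) were lower in Ppara-null. So was the stellate cell marker Des (-0.20), and Col1a1 was under the floor on both arrays. The sums were 1093 and 903.2 for 4 cholangiocyte markers, of which 2 were above the floor in Ppara-null and 1 in wild type. For 4 T and B cell markers they were 776.5 and 765.2, where Cd3e, Cd3g and Cd79a were under the floor on both arrays. The part of these measures in the results below was not tested. Ppara itself, the targeted gene, gave 3414 in Ppara-null against 7957 in wild type at its brightest probe set, and the other two were lower in Ppara-null as well, by 1.98-fold and 2.78-fold.

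Hydration and the following dehydrogenation are carried out by bifunctional enzymes that join an enoyl-CoA hydratase and a 3-hydroxyacyl-CoA dehydrogenase. Ehhadh encodes the L-bifunctional protein, which is known for straight-chain and dicarboxylic substrates. Its only probe set (1448382_at) gave 13156 in Ppara-null and 98088 in wild type, so the Ppara-null signal was 13.4% of the wild-type signal. That is a 7.46-fold lower signal in Ppara-null (log2 ratio -2.90), the 22nd lowest of 13041 measured genes.

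Hsd17b4 encodes the D-bifunctional protein, which also handles branched chains and bile acid precursors. Its brighter probe set (1417369_at) gave 14298 in Ppara-null and 43029 in wild type, a 3.01-fold lower signal in Ppara-null. The dimmer probe set (1455777_x_at) gave 11143 in Ppara-null and 29151 in wild type, or 2.62-fold lower. Both probe sets of Hsd17b4 thus pointed the same way, with log2 ratios of -1.59 and -1.39 that lay within the scatter between probe sets. The log2 ratios of the 2 bifunctional enzymes, -2.90 and -1.59, were further apart than that scatter.

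The last reaction, thiolysis, is represented by Acaa1a, Acaa1b and Scp2. Acaa1a and Acaa1b encode closely similar 3-ketoacyl-CoA thiolases, and they lie on chromosome 9 with 4 protein-coding genes between them in the RefSeq annotation. Signal from 1 copy can reach probes meant for the other, and the array cannot separate them where probes are shared. Acaa1b (1424451_at) gave 50074 in Ppara-null and 171746 in wild type and was 3.43-fold lower in Ppara-null.

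Acaa1a had 2 probe sets, both of a class that can bind related transcripts (names ending in _x_at). The first (1456011_x_at) gave 3091 in Ppara-null and 8830 in wild type, or 2.86-fold lower in Ppara-null. The other (1456737_x_at) gave 3284 in Ppara-null and 5268 in wild type, or 1.60-fold lower. The 2 Acaa1a probe sets agreed in direction, and only the first was past 2-fold. Their log2 ratios, -1.51 and -0.68, were further apart than the scatter SD of 0.42.

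The probe sets annotated to both thiolase copies showed larger differences than those of either copy alone. Their signals were 14204 in Ppara-null against 88166 in wild type (1416946_a_at) and 26861 in Ppara-null against 115854 in wild type (1416947_s_at). They were 6.21-fold and 4.31-fold lower in Ppara-null, with log2 ratios of -2.63 and -2.11. The values of Acaa1a and Acaa1b as separate genes are uncertain for this reason.

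Scp2 encodes, from the same gene, a long form with a thiolase domain for branched substrates (SCPx) and a short lipid carrier (sterol carrier protein 2), and the probe sets are not annotated by form. The brightest (1426219_at) gave 145182 in Ppara-null and 138595 in wild type. The next (1449686_s_at) gave 63177 in Ppara-null and 52060 in wild type, and the dimmest (1419975_at) gave 2425 in Ppara-null and 2067 in wild type. These 3 probe sets were slightly higher in Ppara-null on the deposited scaling, with log2 ratios of 0.07, 0.28 and 0.23, and the first of them became -0.14 after quantile normalization and -0.31 with the hybridization controls as the scale. The remaining probe set (1419974_at) gave 3135 in Ppara-null and 4825 in wild type and was 1.54-fold lower in Ppara-null. No Scp2 probe set was 2-fold apart, in contrast to those of Acaa1b and the brighter of Acaa1a. At the brightest probe sets, the log2 gap between Acaa1a and Scp2, 1.58, was the widest between neighbours among the 9 genes.

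The auxiliary enzymes act on unsaturated chains. Ech1 encodes a dienoyl-CoA isomerase, found in peroxisomes and mitochondria, that shifts a pair of conjugated double bonds. It gave 6972 in Ppara-null and 55607 in wild type (1448491_at). This was 7.98-fold lower in Ppara-null (log2 ratio -3.0), the largest difference among the 9 genes and the 16th lowest ratio of all measured genes.

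Decr2 encodes the peroxisomal 2,4-dienoyl-CoA reductase, which removes 1 of 2 conjugated double bonds with NADPH. It gave 1912 in Ppara-null and 13893 in wild type (1423495_at), 7.27-fold lower in Ppara-null. Eci2 encodes an enoyl-CoA isomerase that moves a double bond into the position the cycle needs. It gave 6563 in Ppara-null and 38236 in wild type (1431012_a_at), 5.83-fold lower in Ppara-null. All 3 auxiliary enzymes were thus more than 5-fold lower in Ppara-null, each on the evidence of 1 probe set.

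Pecr encodes the peroxisomal trans-2-enoyl-CoA reductase, which saturates the double bond that the acyl-CoA oxidase makes and so serves chain building. It gave 34196 in Ppara-null and 30795 in wild type (1448910_at), and its dimmer probe set (1439167_at) gave 892.3 in Ppara-null and 849.2 in wild type. The 2 arrays were 1.11-fold and 1.05-fold apart at these probe sets, less than the scatter between probe sets of a gene.

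**Figure D1:**
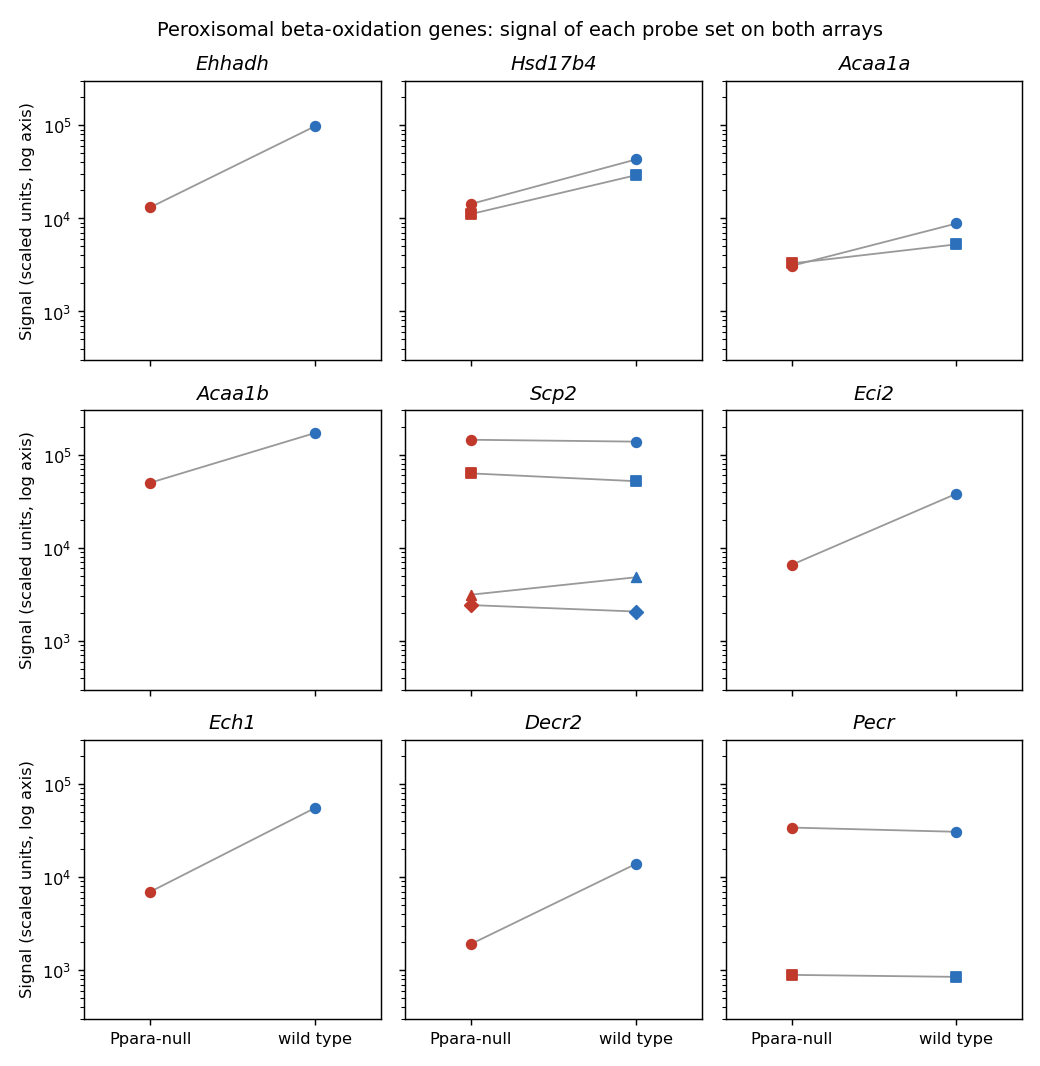
Signal of each probe set of the 9 genes on the Ppara-null array (left, red) and the wild-type array (right, blue), on a log axis in scaled units; a line joins the 2 values of a probe set and marker shapes separate probe sets of a gene. The lines climb towards wild type in 7 panels, most steeply for Ech1 (6972 in Ppara-null, 55607 in wild type), and run nearly flat for Pecr and for 3 of the 4 Scp2 probe sets.

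Ordered by ratio, the 9 genes formed 3 sets separated by gaps wider than the scatter SD of 0.42. This SD is of single probe sets about their gene, and a difference between 2 genes scatters more widely than it. Ech1, Ehhadh, Decr2 and Eci2 formed the lowest set, with log2 ratios from -3.0 to -2.54 and gaps between neighbours of at most 0.32. Acaa1b, Hsd17b4 and Acaa1a followed, from -1.78 to -1.51, after a gap of 0.76. Scp2 and Pecr stood last, at 0.07 and 0.15. Neighbours inside each set did not differ beyond the scatter between probe sets.

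These sets follow the brightest probe set of each gene, and 5 of the 9 genes have only 1. The other Acaa1a probe set, at -0.68, lay between the second set and the third. The shared probe sets of Acaa1a and Acaa1b, at -2.63 and -2.11, lay between the first set and the second or inside the first. Of the 15 probe sets, 8 were at least 2-fold lower in Ppara-null. The share over all probe sets was not computed, and that over all measured genes, counted by gene, was 4.99%. Among the 1780 measured genes as bright on average as the dimmest member, a comparison chosen after seeing the data, 3.54% were at least 2-fold lower in Ppara-null and 1.35% at least 2-fold higher.

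**Figure D2:**
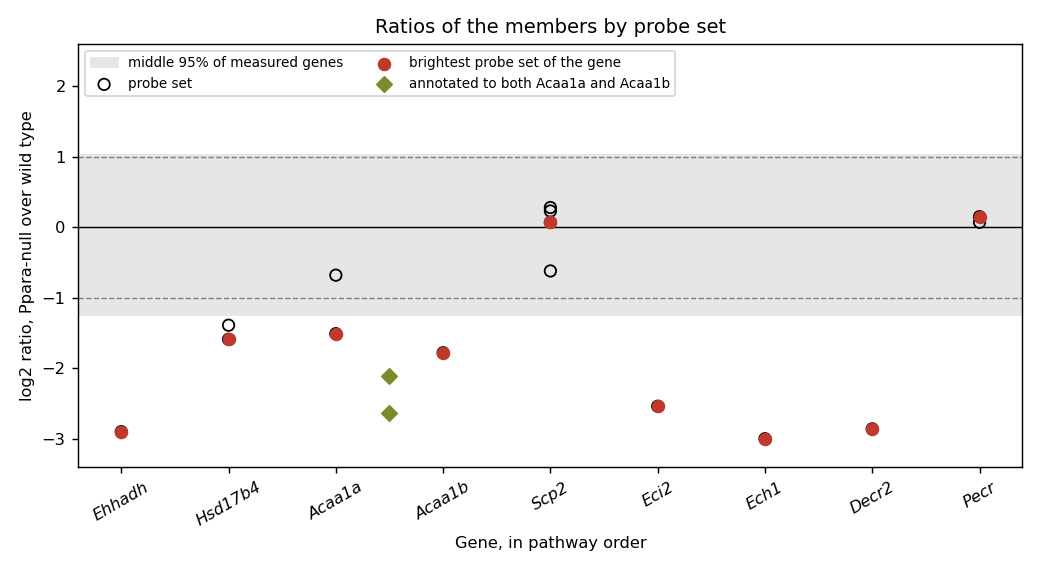
The log2 ratio of Ppara-null over wild type (vertical axis) for the 9 genes in pathway order, with every probe set as an open circle, the brightest filled in red and the 2 probe sets shared by Acaa1a and Acaa1b as diamonds; dashed lines mark 2-fold and the grey band holds the middle 95% of measured genes, from -1.25 to 1.02. The brightest probe sets of 7 genes lie under the band, and those of Scp2 and Pecr lie near 0.

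RefSeq promoter windows, from 250 bases before to 50 bases after an annotated start (GRCm38.p6), were used for 8 of the 9 genes. Hsd17b4 was left out of the promoter search, so the window counts below say nothing about that gene. PPARα binds with RXR to a pair of AGGTCA-like half-sites spaced by 1 base, and the windows were searched on both strands for that motif and for common promoter elements. Of the 4 windows shown, those of Ehhadh, Acaa1b and Acaa1a belong to genes that were lower in Ppara-null, and Scp2 is the thiolase gene without a 2-fold difference. They lie at chr16:21787785-21788084 (minus strand, Ehhadh), chr9:119157044-119157343 (minus strand, Acaa1b), chr9:119341044-119341343 (plus strand, Acaa1a) and chr4:108118498-108118797 (minus strand, Scp2), and capitals mark each match to AGGTCA, to CCAAT or to GGGCGG on either strand.
Ehhadh: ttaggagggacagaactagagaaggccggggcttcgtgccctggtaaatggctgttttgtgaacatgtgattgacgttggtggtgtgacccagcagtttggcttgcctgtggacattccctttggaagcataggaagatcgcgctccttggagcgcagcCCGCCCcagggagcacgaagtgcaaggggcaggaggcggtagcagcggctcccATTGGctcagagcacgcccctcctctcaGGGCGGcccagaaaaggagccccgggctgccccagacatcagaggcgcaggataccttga
Acaa1b: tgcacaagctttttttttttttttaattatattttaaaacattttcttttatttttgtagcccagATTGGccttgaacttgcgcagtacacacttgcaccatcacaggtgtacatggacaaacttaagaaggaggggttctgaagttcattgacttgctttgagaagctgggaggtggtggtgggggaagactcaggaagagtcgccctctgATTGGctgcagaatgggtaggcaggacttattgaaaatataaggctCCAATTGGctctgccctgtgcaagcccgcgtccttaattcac
Acaa1a: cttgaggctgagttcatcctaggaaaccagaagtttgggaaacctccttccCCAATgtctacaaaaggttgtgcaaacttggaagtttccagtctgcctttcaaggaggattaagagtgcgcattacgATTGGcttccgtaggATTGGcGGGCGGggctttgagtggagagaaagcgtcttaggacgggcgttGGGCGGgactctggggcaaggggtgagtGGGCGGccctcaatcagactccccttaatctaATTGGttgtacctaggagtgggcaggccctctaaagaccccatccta
Scp2: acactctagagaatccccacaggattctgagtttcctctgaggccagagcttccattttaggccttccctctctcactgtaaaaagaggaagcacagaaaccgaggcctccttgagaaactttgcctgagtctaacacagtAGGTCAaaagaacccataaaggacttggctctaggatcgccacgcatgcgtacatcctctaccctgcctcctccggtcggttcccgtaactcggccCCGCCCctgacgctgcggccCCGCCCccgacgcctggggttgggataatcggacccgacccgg

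The paired motif AGGTCANAGGTCA was in 0 of the 8 windows and in 0.0396% of all 32851 promoter windows of the table. The looser form AGGNCANAGGNCA was in 0 of the 8 and 0.381% of all. A single AGGTCA, which overlaps the paired motif by definition, was in 1 of the 8 windows, that of Scp2, with its first base at position -109, and in 16.3% of all windows. These counts say only which letters stand in a window of 300 bases.

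CCAAT was in 5 of the 8 windows (Ehhadh, Acaa1a, Acaa1b, Eci2 and Pecr) and in 37.4% of all, and GGGCGG in 7 of the 8 and 35.7% of all. Acaa1b was the window without GGGCGG, and it had the lowest GC content of the 8, 43.7% with 4 CpG dinucleotides, against 53.3% and 10 CpG for Acaa1a. The window of Acaa1b held 4 CCAAT matches, of which 2 on opposite strands overlap, and that of Acaa1a also held 4. TATAAA was in 0 of the 8 windows and 13.6% of all. The Scp2 window starts from a site 26424 bases inside the outer end of the gene, and the Eci2 window from one 32971 bases inside, so other starts of these 2 genes were not searched. The windows of Acaa1a and Decr2 start from sites 266 and 158 bases inside. Sequence before the outer end was therefore not searched for Acaa1a and only in part for Decr2.

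The mitochondrial cycle carries out the same reactions with its own enzymes. Of 7 such enzymes, all measured, Hadha, Hadhb, Eci1 and Decr1 were at least 2-fold lower in Ppara-null and 0 were higher, with a median log2 ratio of -1.24, beside shares of 4.99% lower and 2.8% higher over all measured genes. Acaa2 (-0.89), Hadh (-0.38) and Echs1 (0.03) were under 2-fold apart. With the hybridization controls as the scale, Acaa2 passed 2-fold (-1.27), as did 13.5% of all measured genes downwards. Ehhadh (-2.90) was further from 0 than Hadha (-1.24), the mitochondrial hydratase and dehydrogenase, by 1.66 on the log2 scale. Decr2 (-2.86) was further from 0 than its mitochondrial counterpart Decr1 (-1.64) by 1.22. Both gaps exceeded the scatter SD of 0.42, at 3.90 and 2.87 times it. That SD is of single probe sets, and a difference between 2 genes scatters more widely, so these multiples are upper values.

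The isomerases ran the other way by a small gap. Eci2 had a log2 ratio of -2.54 and mitochondrial Eci1 one of -2.84, a difference of 0.30 that lies within the scatter. Eci1 gave 8374 in Ppara-null and 60061 in wild type. Acaa1b was further from 0 than the mitochondrial thiolase Acaa2 by 0.89 on the log2 scale, and Acaa1a by 0.62. Against Hadhb, the thiolase subunit of the trifunctional protein, the gaps of Acaa1b and Acaa1a were 0.35 and 0.09, both inside the scatter. Hsd17b4 differed from Hadha by 0.35.

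**Figure D3:**
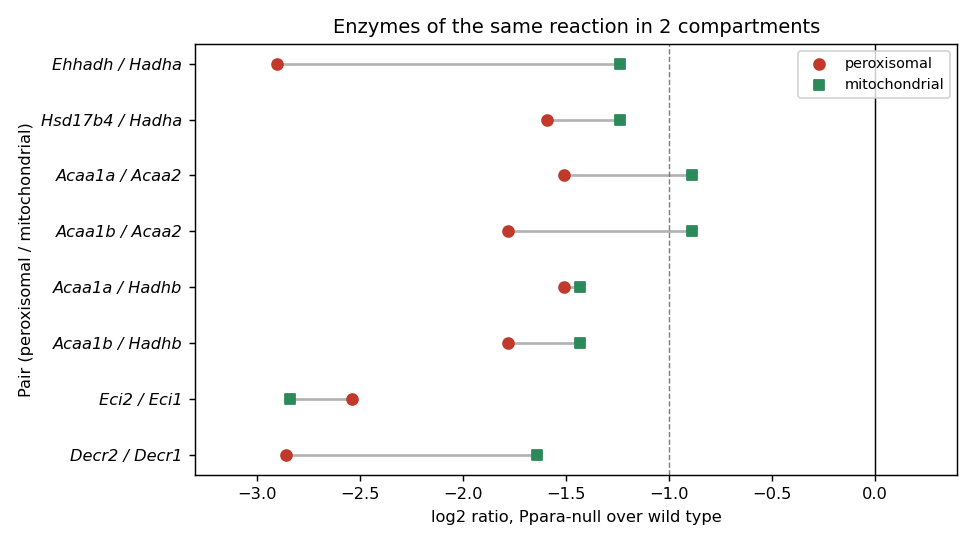
The log2 ratio of Ppara-null over wild type (horizontal axis) for 8 pairs of a peroxisomal enzyme (red circle) and a mitochondrial enzyme of the same reaction (green square), with the dashed line at 2-fold lower. The widest gaps are those of Ehhadh with Hadha (1.66) and Decr2 with Decr1 (1.22), and Eci2 with Eci1 is the only pair in which the mitochondrial gene has the lower ratio.

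The other peroxisomal genes of the pathway, a list drawn up by function, did not all share the difference. Of the 22 that were measured, 8 were lower in Ppara-null by 2-fold or more and 0 higher, with a median log2 ratio of -0.24, beside the 4.99% of all measured genes that were as much lower. The lower genes lay mostly at the entry to and the exit from the cycle. The acyl-CoA importer Abcd3 gave 25627 in Ppara-null and 65801 in wild type and was 2.57-fold lower. Abcd2, a related importer, gave 89.8 in Ppara-null, under the floor, and 1872 in wild type, a difference of at least 6.95-fold, or at least 4.43-fold with the floor at the brightest Bacillus control. Slc27a2, a very long-chain acyl-CoA synthetase, was 1.56-fold lower in Ppara-null. It was just past 2-fold with the hybridization controls as the scale (log2 ratio -1.02), where 13.5% of all measured genes were at least 2-fold lower.

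At the exit, 4 of 6 genes were at least 2-fold lower in Ppara-null, against 4.99% of all measured genes. When each gene took the median of its measured probe sets, Crat (-0.55) and Crot (-0.60) were no longer 2-fold apart. The thioesterase Acot8 gave 961.7 in Ppara-null and 6807 in wild type, 7.08-fold lower. The carnitine acetyltransferase Crat was 3.75-fold lower, the thioesterase Acot4 3.25-fold and the carnitine octanoyltransferase Crot 2.52-fold. Probe sets disagreed for some of them: a second Acot4 probe set was 1.49-fold lower, and a dim Crot probe set gave 317.1 in Ppara-null and 38.6 in wild type. Of the other Crat probe sets, 1441919_x_at was 1.30-fold lower in Ppara-null, and 1448544_at gave 91.5 in Ppara-null, under the floor, and 395.4 in wild type.

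The listed genes that oxidise or prepare branched and 2-hydroxy chains were under 2-fold apart on the deposited scaling, as was Scp2. Hsd17b4, which also handles branched chains, was 3.01-fold lower in Ppara-null. The branched-chain oxidase Acox2 gave 24838 in Ppara-null and 27852 in wild type, and the racemase Amacr 4094 in Ppara-null and 3969 in wild type. Phytanoyl-CoA hydroxylase (Phyh) gave 133004 in Ppara-null and 101927 in wild type, a log2 ratio of 0.38. The 2-hydroxyacyl-CoA lyase Hacl1 was 1.84-fold lower in Ppara-null. It passed 2-fold after scaling to the hybridization controls (log2 ratio -1.26), as did 13.5% of all measured genes downwards. Acox3, a further branched-chain oxidase, had a log2 ratio of 0.54 at dim signals of 610.0 in Ppara-null and 419.7 in wild type. Acoxl was under the floor on both arrays.

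The importers of matrix proteins kept close between genotypes while 1 processing protease did not. At the brightest probe sets, log2 ratios of the receptors Pex5 and Pex7 and of the docking proteins Pex13 and Pex14 lay between -0.14 and 0.27. A dimmer probe set of Pex5 was at -0.42 and one of Pex13 at -0.31. Tysnd1, a protease that cleaves several beta-oxidation enzymes in the peroxisome, had a log2 ratio of -0.31. Lonp2, the peroxisomal Lon protease, gave 7530 in Ppara-null and 20016 in wild type, 2.66-fold lower, and of its other probe sets 2 were under 2-fold and 1436655_at gave 24.9 in Ppara-null, under the floor, and 610.5 in wild type. The proliferation factor Pex11a was 3.46-fold lower in Ppara-null, and catalase (Cat), which removes the peroxide made by the oxidases, gave 81848 in Ppara-null and 63369 in wild type.

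**Figure D4:**
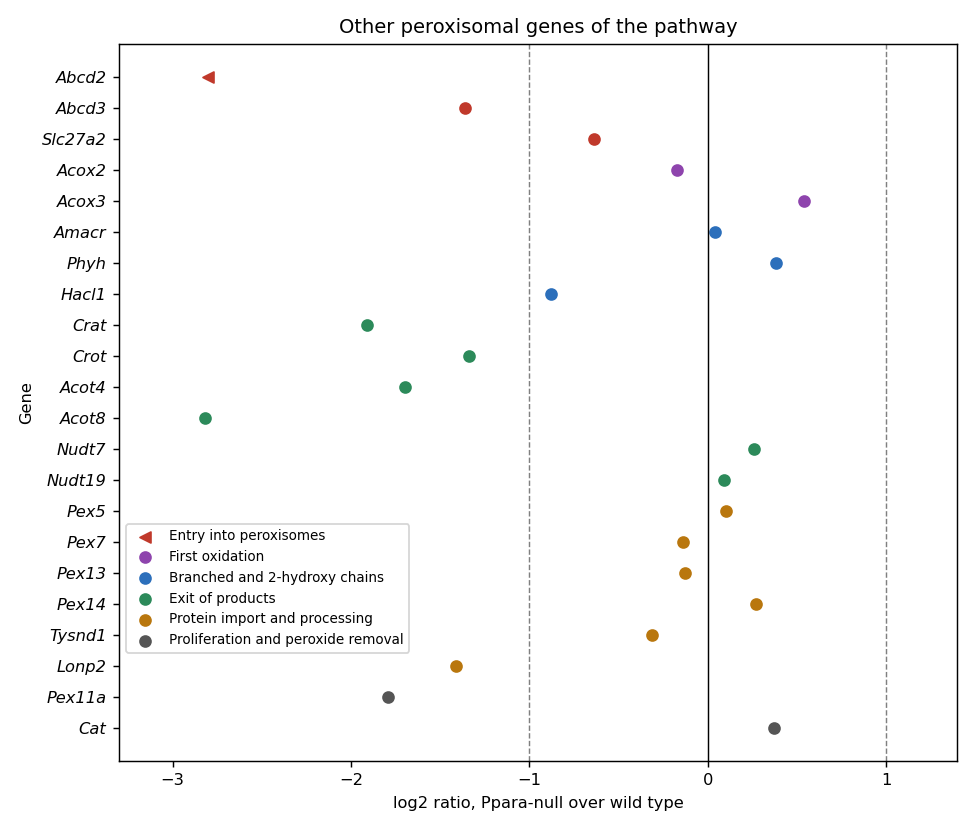
The log2 ratio of Ppara-null over wild type (horizontal axis) for the 22 measured genes of the wider peroxisomal pathway, coloured by role; dashed lines mark 2-fold, and the left-pointing marker is Abcd2, whose value is a bound. The 8 genes left of -1 are Abcd2, Abcd3, Crat, Crot, Acot4, Acot8, Lonp2 and Pex11a, and no gene lies right of 1.

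Scaling bore on the direction of Pecr as well as of Scp2. Scaling to the hybridization controls moved the median log2 ratio of all measured genes to -0.38, and that of Pecr turned to -0.23. That scaling moves all signals of an array by the same factor, so it cannot change where Scp2 (-0.31) and Pecr stand relative to the median. After quantile normalization Scp2 (-0.14) was on the lower side of the median of all measured genes and Pecr (0.17) on the higher side. The direction of the other 7 genes was negative under every scaling tried.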

How the data were processed

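Liver RNA was measured on Affymetrix arrays of 45101 probe sets, 64 of them controls, with 1 pool of 3 mice and 1 array per genotype. Per the labels, the authors made the signal intensity values with the Affymetrix statistical algorithm and scaled each array over all probe sets to a target of 1000; the software version is not given in the sources used here. The same scanner text stands on both samples and was not used. No detection calls were used, and the number of arrays limits the precision.

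Gene symbols came from the platform annotation of 2016, and all 9 members matched the RefSeq table (GRCm38.p6) by gene identifier. Signals were used as deposited. For gene values, signals under the floor (the median over an array's probe sets without controls) were set to the floor ahead of the log2 ratio of Ppara-null over wild type. Each gene was represented by its probe set of highest mean log2 signal. Values of single probe sets have no floor. Calls were made at 2-fold, without a test. All members and listed genes could be named. The members, gene lists, markers and alternatives were chosen with earlier results of these data known. The calling procedure was also run on simulated signals with planted changes. Noise in them was set to the scatter SD of 0.42 and held no difference between mice or pools. That run therefore cannot check the calls made here. Alternatives were other scalings, floors, probe set rules and thresholds. Computation used Python 3.11.15, pandas 2.3.3 and statsmodels 0.14.6. Genes without a probe set of their own were not analysed here.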

Additional observations from a re-analysis of the deposited data

How the results depend on the processing

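The count of 7 members at least 2-fold lower in Ppara-null was the same in 10 of 12 alternatives. Some of these could not change it, since every member probe set was above the main floor and the brightest Bacillus control. A lower floor, no floor or the Bacillus floor thus left each member value as it was, and the floor at the 75th percentile changed none. The count was 6 of 9 at a threshold of 3-fold. Without probe sets ending in _x_at or _s_at it was 6 of 8, with no value left for Acaa1a. Over the same alternatives the share of all measured genes past the limit downwards was 4.99% as reported, 13.5% with the hybridization controls as the scale, 14% and 2.12% with floors at the 25th and 75th percentile, 17% with no floor, 2.53% with the floor at the brightest Bacillus control and 14.8% at 1.5-fold. The median log2 ratio of the members lay between -2.16 and -1.73. Single members moved by less than the scatter SD of 0.42 in all alternatives; Acaa1a moved most towards 0, to -1.10 with the median over its probe sets. Among the other pathway genes the count of 8 lower fell to 5 with the median over probe sets, where Crat (-0.55), Crot (-0.60) and Lonp2 (-0.86) were under 2-fold, and it was 5 at 3-fold. With no floor, 1 pathway gene, Acoxl, was at least 2-fold higher, on signals under the floor of both arrays. Of the 4 mitochondrial counterparts, 2 remained at 3-fold. No alternative replaces the missing replicates. No paired analysis was possible because each genotype has 1 array.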
